A study of Mus musculus with 8 samples.

Results

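The epicardial and mesothelial genes described here are *Wt1*, *Tcf21*, *Upk3b*, *Upk1b*, *Lrrn4*, *Msln*, *Krt8*, *Krt18* and *Krt19*. They were chosen by name, as markers of the epithelial layer that covers the heart and lines the body cavities, and all 9 were found among the 14608 genes of the table. RNA-seq of polyA RNA was performed on mouse outflow tract (OFT), the vessel-like arterial end of the embryonic heart, at embryonic day 11.5. There were 4 control libraries and 4 libraries of *Mib1*V943F/+ *Gata6*STOP/+ embryos, and the question was how the genotypes differ in gene expression. The mutant embryos carried 1 copy of a missense allele of *Mib1* (V943F), which encodes a ubiquitin ligase needed for NOTCH ligand activity, and 1 copy of a null allele of *Gata6*, which encodes a cardiac transcription factor, with a premature stop. The labels give the other genotype as control, with WT in the sample titles, with no strain and no statement on littermates, and no Cre or cell type restriction is described for the mutant alleles. Each library is a pool of 3 individuals in the description of the series, while the methods of the study describe fewer and larger pools, so the number of embryos behind a library is not settled.

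The OFT is covered by mesothelium that meets the mesothelium of the pericardial wall. The epicardium is a sheet of mesothelium that spreads over the myocardium from the proepicardium. Its cells are held together as a simple epithelium with keratin filaments and a glycoprotein-rich free surface, and some of them later undergo epithelial-mesenchymal transition and give rise to fibroblasts and mural cells. WT1 and TCF21 are transcription factors of this layer, uroplakins, LRRN4 and mesothelin are surface proteins of mesothelium, and keratins 8, 18 and 19 form the filaments of simple epithelia in general.

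Levels are given in CPM, read counts at a common library size after TMM scaling by the authors, and the reads on listed genes ran from 10669420 in control replicate 2 to 30469165 in mutant replicate 3. *Gata6* RNA ranged from 236 to 279 CPM in the control and from 213 to 284 CPM in the mutant libraries, and *Mib1* RNA from 107 to 138 CPM and from 123 to 137 CPM. Neither level separated the genotypes, whereas the study describes lower *Gata6* RNA in this mutant genotype from quantitative PCR, so the values of *Gata6* here go against that description. The text of the study names no stage or tissue for that measurement, and the cause of this gap was not tested. The libraries are therefore called control-labelled and mutant-labelled where a direction is drawn. A pair of libraries stood apart from the rest. On the first principal component of the 11651 genes that averaged 5 CPM or more, which held 40.9% of the variance, mutant replicate 2 lay at 26.4 and control replicate 2 at -22.5, and the others between -8.62 and 3.81. The same libraries had the steepest trends with the GC content of transcripts, at -0.18 and 0.21 on the log2 scale per 10% of GC. Control replicate 2 also had the fewest reads. The differences of the members and the counts of the gene lists are given with and without mutant replicate 2 where leaving it out changes them. The counts of the gene lists were not redone without control replicate 2, although it lay nearly as far out.

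No member passed the test between the genotypes. In limma on log2(CPM + 0.5), with Benjamini-Hochberg adjustment over all 14608 genes, 0 of the 9 members had an adjusted p under 0.05, and 0.0% of all genes did. With an unadjusted p, 1 of the 9 members (*Msln*, lower in the mutant-labelled libraries) was under 0.05, against 1763 of all genes, or 12.1%, with 967 genes, or 6.62%, in the lower and 796 genes, or 5.45%, in the higher direction. This background itself moves with the processing, to 1161 higher and 740 lower genes with each library scaled to the same total, to 450 and 671 without control replicate 2, to 493 and 679 without control replicate 3, and to 532 (3.64%) and 798 (5.46%) without mutant replicate 2. A single member is close to this background and is not a result about the members. On whole reads recovered from the CPM values, the likelihood ratio test of edgeR called 107 genes (0.732%), DESeq2 called 192 genes (1.31%) and the quasi-likelihood test of edgeR called 0 genes (0.0%), and each of these tests called 0 of the 9 members. The control and mutant values overlapped for all 9 members, while 1037 genes of the table, or 7.1%, had groups that did not overlap. The median log2 difference, mutant minus control, was 0.04 over the 9 members and 0.00 over all genes, and 7 members had a higher and 2 a lower mean of log2 values in the mutant-labelled libraries. The median of the members was -0.04 without mutant replicate 2, with 3 members higher and 6 lower, so this direction rests on that library. In whole tissue, fewer cells of a type and less RNA per cell cannot be told apart, which holds for every value below.

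**Figure D1:**
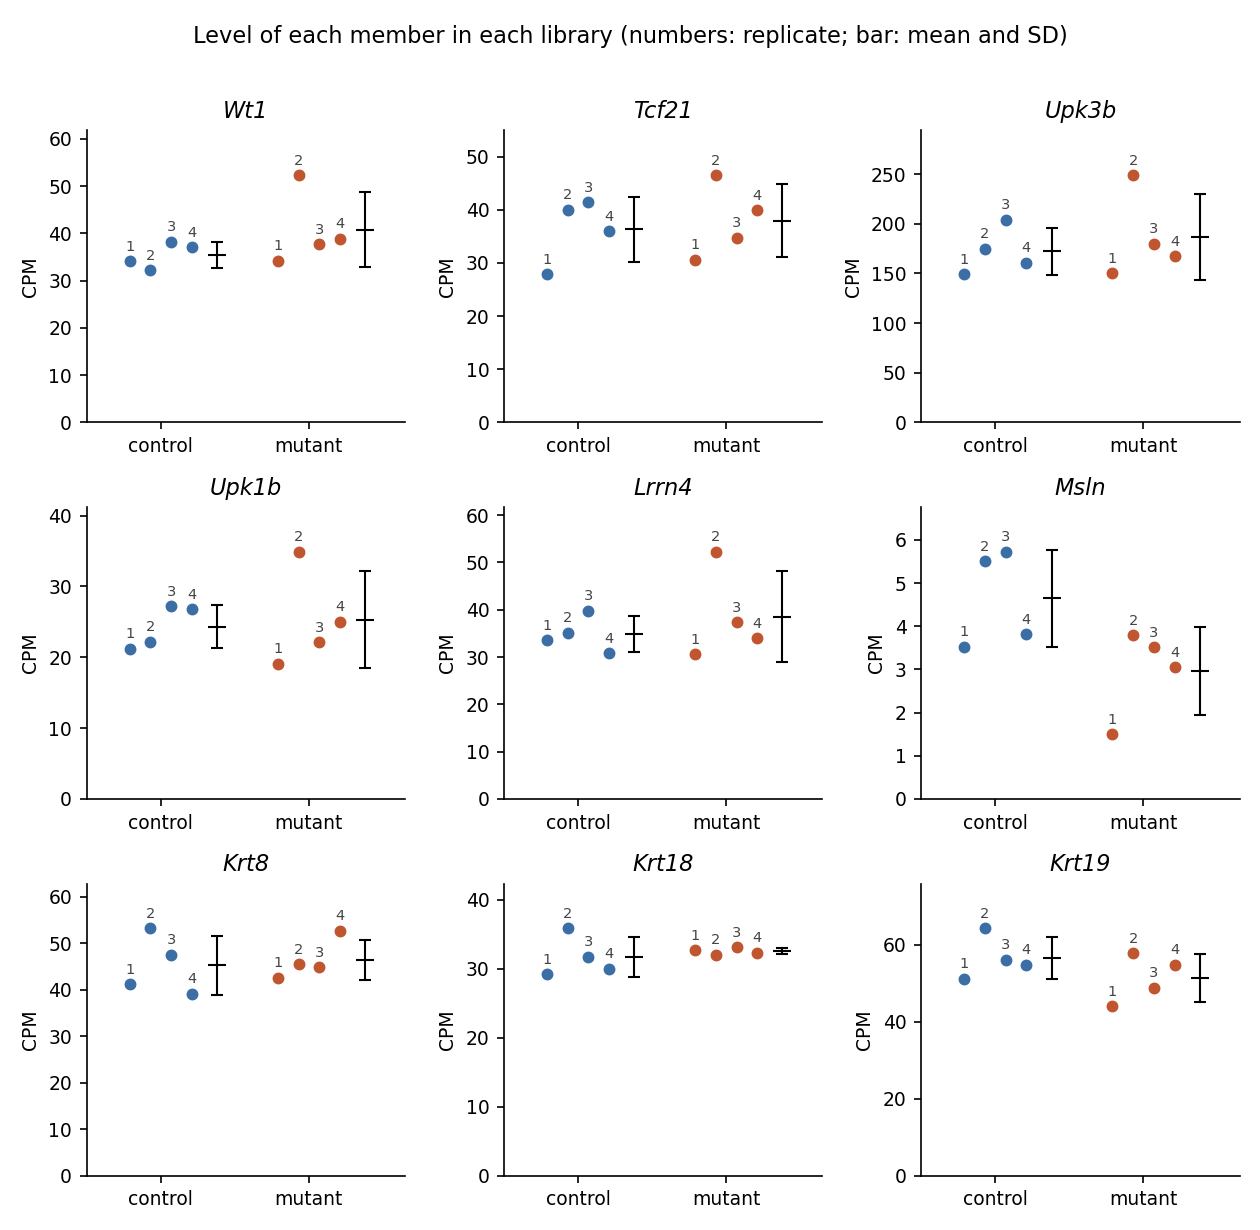
Level of each member in CPM (vertical axes, starting at 0) in the 4 control and 4 mutant libraries, with the replicate number above each point and the mean and SD of each group as a bar. Mutant replicate 2 is the highest of the 8 libraries for *Wt1*, *Tcf21*, *Upk3b*, *Upk1b* and *Lrrn4*, and the groups overlap in every panel.

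Of the transcription factors, *Wt1* (ENSMUSG00000016458, chr2:105126529-105173616 on the plus strand of GRCm38) encodes a zinc finger protein that marks epicardium and mesothelium. In the order of replicates 1 to 4, which is kept throughout, the control libraries had 34.2, 32.1, 38.2 and 37.1 CPM and the mutant libraries 34.2, 52.4, 37.7 and 38.8 CPM. The mutant-labelled libraries lay within the control range or just above it, apart from replicate 2, which was well above. The means were 35.4 ± 2.76 CPM (SD, n = 4) and 40.8 ± 7.98 CPM (SD, n = 4), and the log2 difference was 0.19 (standard error 0.12, 95% confidence interval -0.07 to 0.44, limma adjusted p = 0.531, exact permutation p = 0.20). Without mutant replicate 2 the *Wt1* difference was 0.06 and the mutant mean 36.9 ± 2.43 CPM. An antisense gene named after *Wt1*, *Wt1os*, was listed at 1.33 to 3.27 CPM, and no annotated gene overlaps *Wt1*. Annotated genes on the opposite strand overlap *Tcf21* (*Gm10824*) and *Krt8* (*Gm36026*), and neither was listed. Whether the counting used strand is not given in the sources used here.

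*Tcf21* (ENSMUSG00000045680, chr10:22817281-22820174 on the minus strand) encodes a basic helix-loop-helix factor of epicardial cells that enter the fibroblast lineage. Its level was 27.8, 40.0, 41.4 and 36.0 CPM in the control and 30.6, 46.6, 34.7 and 39.9 CPM in the mutant libraries. Replicate 1 was the lowest of its group in both genotypes, and mutant replicate 2 was the highest. The log2 difference of 0.06 (standard error 0.14, limma adjusted p = 0.875, exact permutation p = 0.80) became -0.04 without mutant replicate 2 and -0.06 without control replicate 1. As background, *Tcf21* is also expressed in the pharyngeal mesoderm next to the OFT.

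The surface genes came next. *Upk3b* (ENSMUSG00000042985, chr5:136038496-136046487 on the plus strand) encodes uroplakin 3B, a membrane protein of mesothelium, and was the member with the highest level per length (below). The control libraries had 149, 175, 204 and 161 CPM and the mutant libraries 149.995, 249, 179.9 and 167 CPM. Replicate 1 was low in both groups and mutant replicate 2 stood above all others. The log2 difference was 0.10 (standard error 0.14, limma adjusted p = 0.788, exact permutation p = 0.629) and -0.05 without mutant replicate 2.

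*Lrrn4* (ENSMUSG00000043110, chr2:132868305-132880891 on the minus strand) encodes a membrane protein with leucine-rich repeats that is used as a mesothelial marker. Its level was 33.6, 35.2, 39.8 and 30.8 CPM in the control and 30.6, 52.3, 37.4 and 34.0 CPM in the mutant libraries. Mutant replicate 2 stood above all others, mutant replicate 1 was just under the lowest control, and the other mutant values were inside the control range. The log2 difference was 0.12 (standard error 0.14, limma adjusted p = 0.742, exact permutation p = 0.629) and -0.04 without that library.

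*Upk1b* (ENSMUSG00000049436, chr16:38773184-38800328 on the minus strand) encodes a tetraspanin that pairs with uroplakin 3 proteins. It was at 21.2, 22.2, 27.2 and 26.8 CPM in the control and at 19.1, 34.9, 22.1 and 25.0 CPM in the mutant libraries. The lowest and the highest of the 8 values were both from mutant-labelled libraries. The log2 difference was 0.03 (standard error 0.16, limma adjusted p = 0.952, exact permutation p = 0.943), and it was -0.14 without mutant replicate 2. It was -0.04 without control replicate 1 and -0.01 without control replicate 2. The other uroplakin genes searched, *Upk1a*, *Upk2*, *Upk3a* and *Upk3bl*, were not listed in the table, so 2 of 6 were listed, and both had their highest value in mutant replicate 2.

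*Upk3b* and *Lrrn4* had the highest Pearson r over the 8 libraries of all pairs of members (below), so the stretches before their start sites are shown. Entries in the RefSeq promoter table of GRCm38.p6 existed for 5 of the 9 members (*Tcf21*, *Upk3b*, *Lrrn4*, *Krt8* and *Krt18*). The 250 bases before each RefSeq start were searched on both strands for AGATAA, which is bound by factors of the same family as GATA6, and for GGAATG, which is bound by TEAD factors. They were also searched for TATAAA, which is the box of core promoters, for CAGGTG, which is the E-box of Snail and Zeb factors, and for GTGGGAG, which is the core of a WT1 motif. No string is part of another. GGAATG was found once in each of the windows of *Upk3b* and *Lrrn4*, on the opposite strand from 241 to 236 bases before the *Upk3b* start and on the same strand from 196 to 191 bases before the *Lrrn4* start. It occurs in 12.6% of all 32851 promoter windows of this length. Bases within annotated exons are left out, and capitals mark the match, which is a description of the letters only.
Upk3b: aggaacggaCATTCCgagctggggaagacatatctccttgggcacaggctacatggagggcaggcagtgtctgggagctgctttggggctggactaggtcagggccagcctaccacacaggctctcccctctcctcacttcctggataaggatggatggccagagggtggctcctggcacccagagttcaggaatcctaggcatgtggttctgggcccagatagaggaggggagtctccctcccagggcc
Lrrn4: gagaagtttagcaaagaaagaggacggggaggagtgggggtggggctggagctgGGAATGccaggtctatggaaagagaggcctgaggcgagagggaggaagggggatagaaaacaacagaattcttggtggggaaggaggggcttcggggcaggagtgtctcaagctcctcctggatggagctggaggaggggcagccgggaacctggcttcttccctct
The *Upk3b* stretch is chr5:136038246-136038495 on the plus strand and the *Lrrn4* stretch is chr2:132880892-132881112 on the minus strand. The window of *Tcf21* held AGATAA from 31 to 26 bases before its start, in a stretch that the annotation counts as exon, and none of the other strings. AGATAA occurs in 9.99% of all windows.

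*Msln* (ENSMUSG00000063011, chr17:25748613-25754378 on the minus strand) encodes mesothelin, a surface glycoprotein of differentiated mesothelium that binds MUC16. The control libraries had 3.53, 5.50, 5.73 and 3.82 CPM and the mutant libraries 1.49, 3.79, 3.51 and 3.05 CPM. All mutant-labelled values were under control replicate 4, but mutant replicate 2 was above control replicate 1, so the groups overlapped. These levels stood for 32 to 142 reads per library. The means were 4.64 ± 1.13 CPM (SD, n = 4) and 2.96 ± 1.02 CPM (SD, n = 4), a ratio of 0.637, and the log2 difference was -0.60 (standard error 0.24, 95% confidence interval -1.13 to -0.08). This difference did not pass the threshold (limma p = 0.0285 and Benjamini-Hochberg adjusted p = 0.38, exact permutation p = 0.0571, where the smallest p of 4 against 4 is 0.0286). The *Msln* difference was -0.73 without mutant replicate 2 and -0.36 without mutant replicate 1. Its unadjusted limma p was above the threshold without mutant replicate 1, control replicate 2 or control replicate 3 (limma Benjamini-Hochberg adjusted p = 0.449, 0.690 and 0.631). Without mutant replicate 1 the member with an unadjusted p under 0.05 was *Wt1* in its place, with a log2 difference of 0.26.

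**Figure D2:**
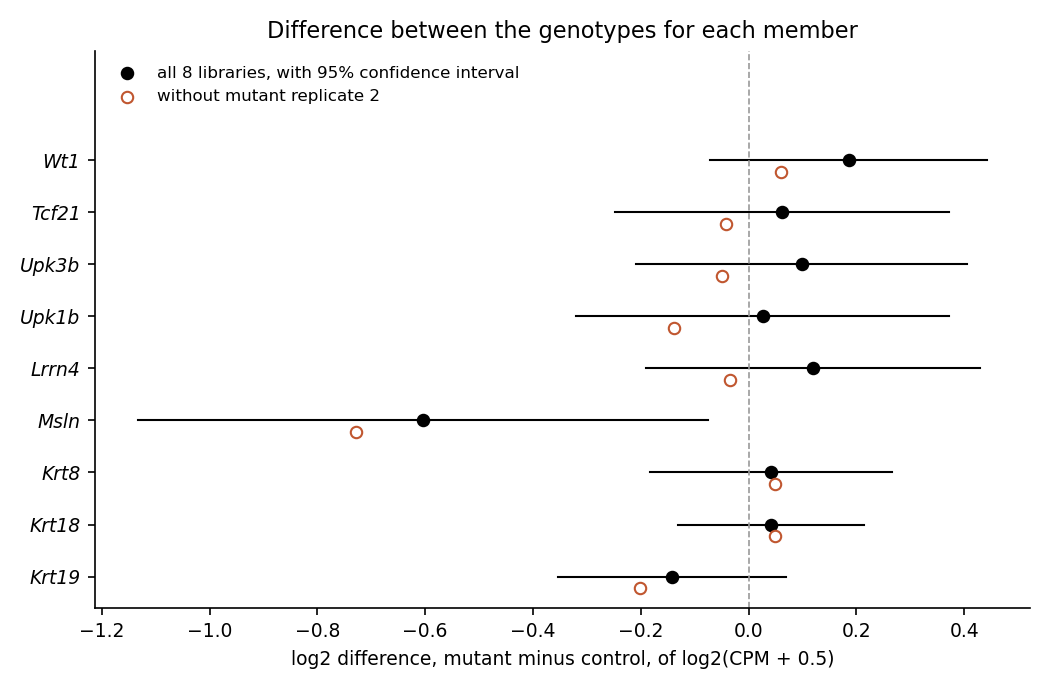
Difference between the genotypes for each member, mutant minus control, on the log2(CPM + 0.5) scale (horizontal axis), with the 95% confidence interval from limma over 8 libraries (filled points) and the value without mutant replicate 2 (open points). The interval of *Msln* runs from -1.13 to -0.08 and the other 8 intervals hold 0.

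The keratins form pairs of a basic and an acidic chain, and keratin 8 with keratin 18 is the first pair made in embryonic epithelia. *Krt8* (ENSMUSG00000049382, chr15:101996698-102004482 on the minus strand) was at 41.2, 53.2, 47.5 and 39.1 CPM in the control and at 42.6, 45.5, 44.9 and 52.7 CPM in the mutant libraries. The values of both groups covered nearly the same range, and mutant replicate 2 was in the middle of it. The log2 difference was 0.04 (standard error 0.10, limma adjusted p = 0.885, exact permutation p = 0.743), and it was -0.02 without mutant replicate 4 or without control replicate 4. Without control replicate 2 it was 0.12. The annotation lists 1 pseudogene named after *Krt8*, and how reads shared with it were counted was not examined.

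*Krt18* (ENSMUSG00000023043, chr15:102028180-102032027 on the plus strand) was at 29.2, 35.8, 31.7 and 29.98 CPM in the control and at 32.6, 32.0, 33.1 and 32.3 CPM in the mutant libraries. The mutant values were close together, and the control values lay on both sides of them. The means were 31.7 ± 2.96 CPM (SD, n = 4) and 32.5 ± 0.447 CPM (SD, n = 4), with a log2 difference of 0.04 (standard error 0.08, limma adjusted p = 0.848, exact permutation p = 0.543). This difference was 0.0044 without control replicate 1 and 0.10 without control replicate 2.

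*Krt19* (ENSMUSG00000020911, chr11:100140810-100148665 on the minus strand) encodes the smallest acidic keratin, which is found in simple epithelia and mesothelium. It was at 51.2, 64.2, 56.1 and 54.8 CPM in the control and at 44.0, 57.7, 48.8 and 54.8 CPM in the mutant libraries. Mutant replicates 1 and 3 were under all control values and the other mutant values were inside the control range. The log2 difference was -0.14 (standard error 0.10, limma adjusted p = 0.554, exact permutation p = 0.257). Leaving out 1 library moved it from -0.20 (without mutant replicate 2) to -0.07 (without mutant replicate 1).

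*Krt8* and *Krt18* lie next to each other on chromosome 15, 23697 bp apart with 0 annotated genes between them, and are read in opposite directions away from the gap. Because of this position, the stretches before their starts, outside annotated exons, are shown as well. Capitals mark AGATAA in *Krt8*, from 239 to 234 bases before the start, and CAGGTG on the opposite strand in *Krt18*, from 214 to 209 bases before the start.
Krt8: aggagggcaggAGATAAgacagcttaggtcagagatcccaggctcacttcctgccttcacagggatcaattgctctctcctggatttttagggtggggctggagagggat
Krt18: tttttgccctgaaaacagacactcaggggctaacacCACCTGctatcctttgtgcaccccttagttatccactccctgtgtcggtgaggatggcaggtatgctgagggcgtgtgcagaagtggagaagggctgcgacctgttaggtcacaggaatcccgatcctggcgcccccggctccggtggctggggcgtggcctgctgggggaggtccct
These are chr15:102004483-102004592 on the minus strand and chr15:102027966-102028179 on the plus strand, credited to RefSeq GRCm38.p6. The window of *Krt8* also held CAGGTG on the opposite strand, from 111 to 106 bases before the start, in a stretch that the annotation counts as exon. CAGGTG occurs in 17.2% of all windows, TATAAA in 12.4% and GTGGGAG in 8.25%, and the last 2 strings were found in 0 of the 5 members with an entry.

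Levels of the members were compared with each other per kb of exon, while the most abundant gene of a list is given by CPM, without regard to length. *Upk3b* came first at 50.8 ± 9.45 CPM per kb (SD over 8 libraries), with its lowest library (42.2) above the highest of any other member. *Krt19* followed at 29.1 ± 3.27 CPM per kb and was above *Krt8* in 8 of 8 libraries. *Krt8* at 23.4 ± 2.61 and *Krt18* at 22.3 ± 1.40 CPM per kb did not differ beyond their spread, with *Krt8* higher in 5 of 8 libraries. *Tcf21* (15.8), *Upk1b* (11.9) and *Lrrn4* (9.88 CPM per kb) followed, each with a range that overlapped that of the next, although each was above the next in 8 of 8 libraries, and the range of *Tcf21* lay under that of *Krt18*. *Wt1* was at 6.15 and *Msln* at 1.24 CPM per kb, and the ranges of these neighbours did not overlap. Divided by the longest transcript in place of all exons, *Wt1* was at 12.3 CPM per kb and came before *Lrrn4* at 9.88, and the other positions were as before. The range of *Tcf21* (15.6 to 26.1 CPM per kb) then overlapped that of *Krt18* (20.3 to 24.9 CPM per kb).

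**Figure D3:**
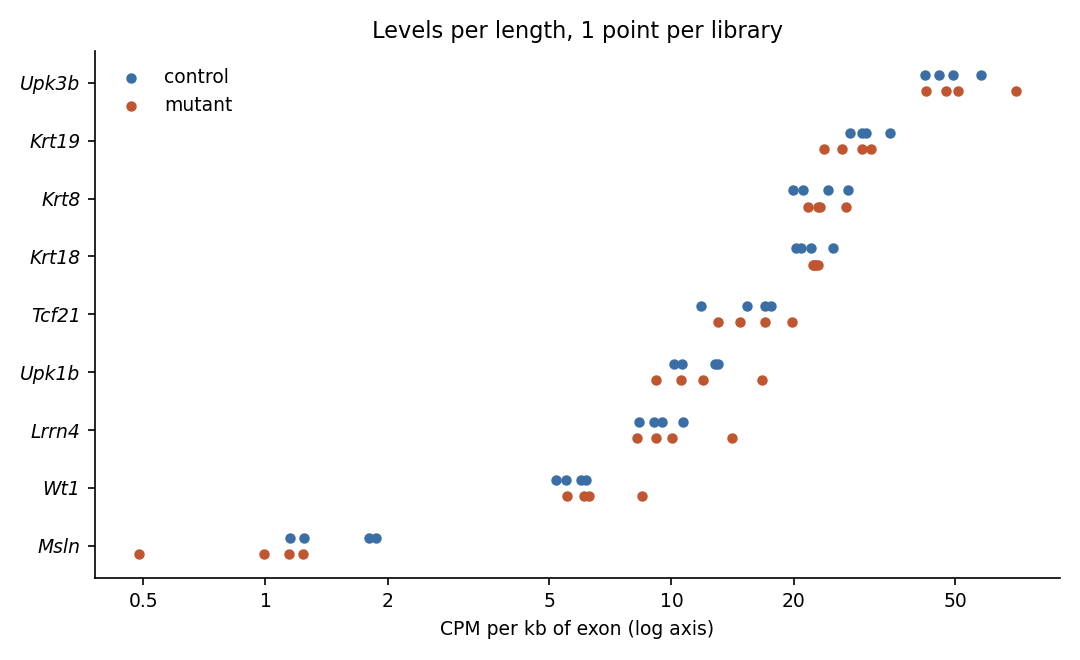
Level of each member in CPM per kb of exon (horizontal log axis), with 1 point for each library in blue for control and orange for mutant. *Upk3b* is the highest in each library and *Msln* the lowest, and *Krt8* and *Krt18* lie over the same range.

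The correlations of the members are given for sets of pairs that leave out *Msln* and *Krt19*, and a grouping of the members was not tested. Over the 8 libraries, the 10 pairs among *Wt1*, *Tcf21*, *Upk3b*, *Upk1b* and *Lrrn4* had Pearson r from 0.653 to 0.958 (median 0.839), whereas the 10 pairs of these genes with *Krt8* or *Krt18* ran from -0.152 to 0.569 (median 0.181). Without mutant replicate 2 the first range was 0.317 to 0.880 (median 0.553) and the second -0.321 to 0.702 (median 0.325), so the ranges then overlapped. Much of the high correlation of the first group thus rests on that library. In all, 36 pairs were computed, and 1 pair passed a Benjamini-Hochberg adjustment over them.

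That pair was *Upk3b* with *Lrrn4*. Its Pearson r was 0.958 (n = 8, exact permutation p = 0.00067, adjusted p = 0.0241) and its Spearman rho 0.929 (exact permutation p = 0.00223, adjusted p = 0.0804). The r was 0.763 without mutant replicate 2 and control replicate 3, the libraries farthest from the median of *Upk3b*, 0.880 without mutant replicate 2 alone and 0.957 after subtraction of the group means. Other pairs were higher in some of these settings, as *Wt1* with *Upk1b* was at 0.968 after subtraction of the group means and *Wt1* with *Tcf21* at 0.936 without its own farthest libraries, mutant replicate 2 and control replicate 2. *Krt8* with *Krt18* had r = 0.747 (n = 8, exact permutation p = 0.0299, adjusted p = 0.109) and rho = 0.595 (exact permutation p = 0.132, adjusted p = 0.28), and r was 0.649 without control replicate 2 and mutant replicate 4. *Msln* with *Krt19* had r = 0.833 (n = 8, exact permutation p = 0.0185, adjusted p = 0.101) and rho = 0.81 (exact permutation p = 0.0218, adjusted p = 0.157), and r was 0.769 without mutant replicate 1 and control replicate 3. *Wt1* with *Msln* had r = 0.0741 (n = 8, exact permutation p = 0.840, adjusted p = 0.890) and rho = -0.0714 (exact permutation p = 0.882, adjusted p = 0.907), and r was 0.579 without mutant replicate 2 and control replicate 2.

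**Figure D4:**
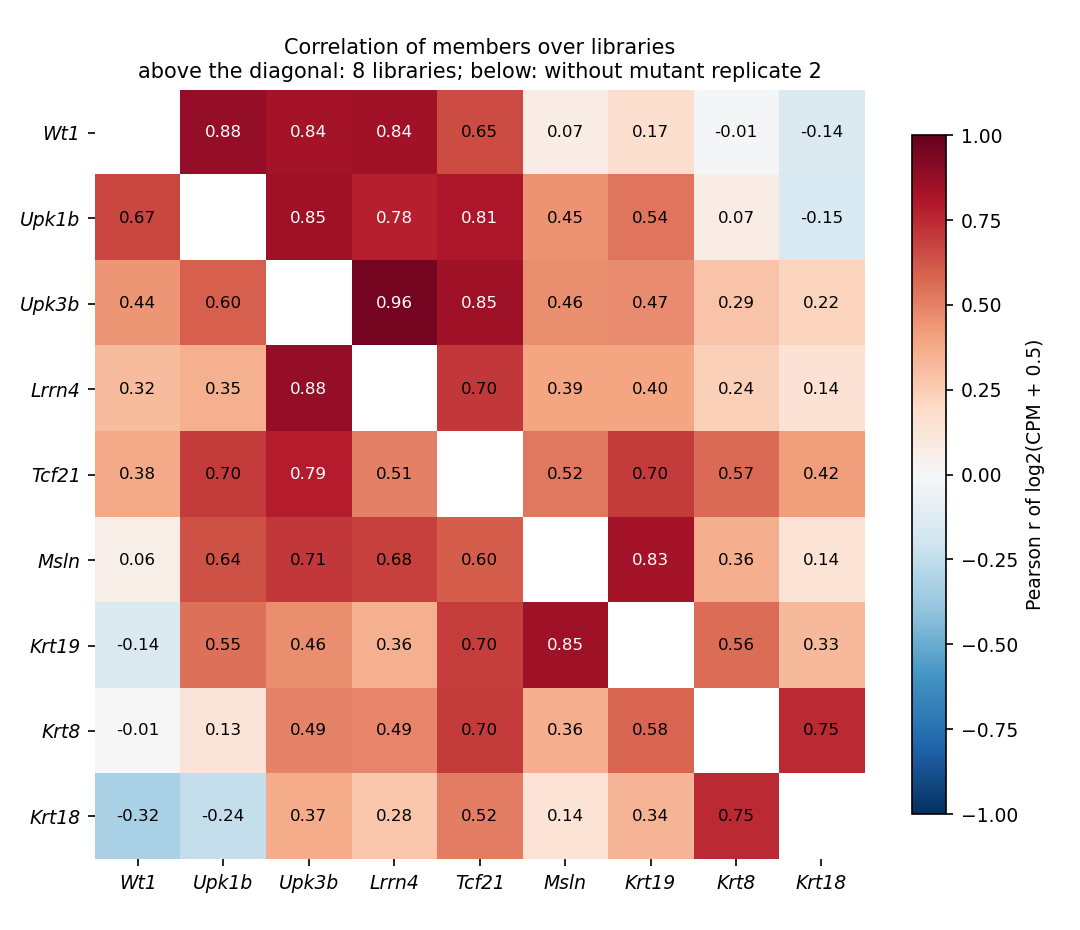
Pearson r of log2(CPM + 0.5) for each pair of members, over 8 libraries above the diagonal and over 7 libraries, without mutant replicate 2, below it. *Wt1*, *Upk1b*, *Upk3b*, *Lrrn4* and *Tcf21* form a block of high values above the diagonal that is weaker below it, while *Krt8* with *Krt18* is at 0.75 in both.

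Mutant replicate 2 was the highest of the 8 libraries for 5 of the 9 members, against 27.3% of all genes. It was above the mean of the other 7 libraries by a factor of 1.45 for *Wt1*, 1.47 for *Upk3b*, 1.49 for *Upk1b* and 1.52 for *Lrrn4*. The factor was 1.30 for *Tcf21* and 1.08 for *Krt19*, but 0.996 for *Msln*, 0.991 for *Krt8* and 0.998 for *Krt18*. Of 17 further epicardial genes, 15 were listed (*Bnc2* and *Cldn15* were not), and 11 of these 15 were also highest in mutant replicate 2. *Tbx18*, a transcription factor of the proepicardium, was at 61.5, 58.4, 81.2 and 71.4 CPM in the control and at 55.5, 104, 74.5 and 65.4 CPM in the mutant libraries. *Aldh1a2*, the retinoic acid synthesizing enzyme of epicardium, reached 72.0 CPM in mutant replicate 2 and was between 34.5 and 50.8 CPM elsewhere. *Bnc1*, a zinc finger factor of mesothelium, reached 39.5 CPM there and was between 17.9 and 27.5 CPM elsewhere. None of the 15 had an unadjusted limma p under 0.05, their median log2 difference was 0.10, and the most abundant was *Podxl* at 163 CPM. Without mutant replicate 2 the median was -0.06 and 1 of the 15 was under that unadjusted threshold, *Krt7*, with a log2 difference of -0.39 (limma adjusted p = 0.465), near the 5.46% of all genes in this direction. The groups did not overlap for 1 of them, *Aldh1a1*, at 7.2 to 7.87 CPM in the control and 7.89 to 10.01 CPM in the mutant libraries (limma adjusted p = 0.559), which is close to the 7.1% of all genes.

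The mean of log2(CPM + 0.5) of *Wt1*, *Upk3b*, *Upk1b* and *Lrrn4* was taken as a common level of these mesothelial markers in each library. Relative to its mean over 8 libraries it was at -0.17, -0.10, 0.13 and -0.06 in the control and at -0.24, 0.50, -0.02 and -0.02 in the mutant libraries. Each gene was then taken relative to this mean in its own library, a scale chosen after the values were seen, so that it is given as a description without a test. *Msln* was at -3.46, -2.95, -3.13 and -3.47 in the control and at -4.40, -4.04, -3.62 and -3.79 in the mutant libraries on this log2 scale. Every mutant-labelled library was under every control-labelled library, and the means differed by -0.71. On the same scale 249 of the 14608 genes, or 1.7%, had groups that did not overlap, and since the scale was chosen after the values were seen, and the groups of *Msln* overlap in CPM, nothing is read from this share. *Krt7*, another keratin of mesothelium, was at -1.13, -1.002, -0.79 and -1.14 in the control and -1.42, -1.10, -1.25 and -1.44 in the mutant libraries, where the groups overlapped through mutant replicate 2. *Muc16*, which encodes the binding partner of mesothelin, overlapped widely, from -3.79 to -2.95 in the control and from -4.10 to -3.01 in the mutant libraries. *Tbx18* (0.34 to 0.59 and 0.41 to 0.61) and *Bnc1* (-1.26 to -0.96 and -1.22 to -0.82) had ranges that overlapped on this scale, and their differences were not tested.

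**Figure D5:**
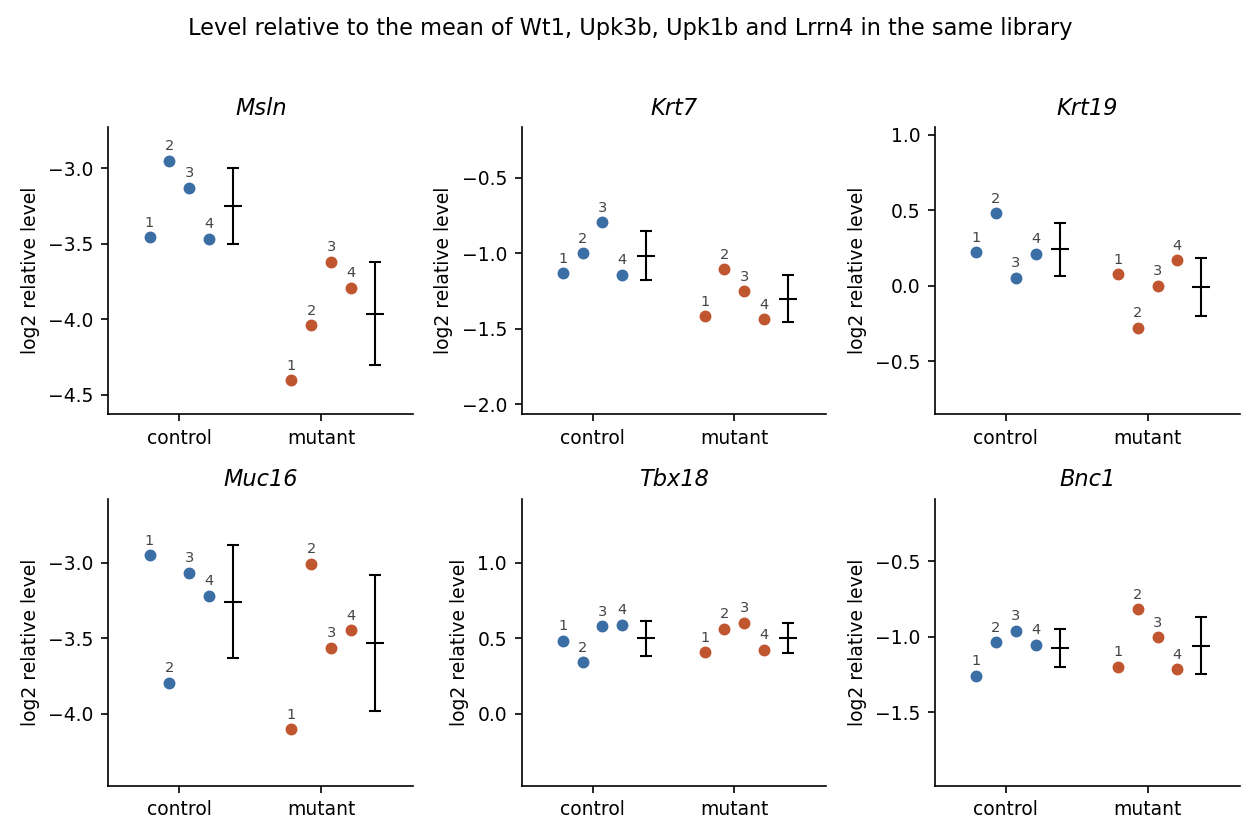
Level of 6 genes as log2(CPM + 0.5) minus the mean of *Wt1*, *Upk3b*, *Upk1b* and *Lrrn4* in the same library (vertical axes, the same length in each panel), with replicate numbers and the mean and SD of each group. The groups are apart for *Msln*, from -3.47 to -2.95 against -4.40 to -3.62, and overlap for the other 5 genes, which were picked after their values were seen.

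The genes with the pattern most like the mesothelial members were found by correlation, over 8 libraries and after subtraction of the group means, with the mean of standardised levels of *Wt1*, *Upk3b*, *Upk1b*, *Lrrn4* and *Msln*. Among the 11651 genes that averaged 5 CPM or more, the 10 highest, members left out, were *Anxa2* (r = 0.992), *Stom* (0.992), *Spon2* (0.989), *Arf2* (0.986), *Fmod* (0.985), *Trf* (0.984), *Ackr3* (0.983), *Nkain4* (0.981), *Nek6* (0.98) and *Vasn* (0.978). *Anxa2*, which encodes a calcium-dependent membrane-binding protein, was at 324, 346, 392 and 344 CPM in the control and at 309, 459, 380.1 and 361 CPM in the mutant libraries. *Stom*, which encodes the membrane protein stomatin, was at 37.9, 42.1, 48.6 and 42.0 CPM and at 35.8, 70.4, 44.2 and 45.3 CPM. In both, replicate 1 was low in each genotype, control replicate 3 was the highest control, and mutant replicate 2 was the highest of all. With mutant replicate 2 left out, *Anxa2* (r = 0.989) and *Stom* (r = 0.987) were still the first genes, and *Nkain4* was at place 41. As 196 genes (1.68%) had r over 0.9, members included, the pattern was not limited to a few genes, and the points of each correlation share their library, depth and base composition. *Krt19* (r = 0.697) took place 1303, *Krt8* (r = 0.230) place 4412 and *Krt18* (r = 0.0398) place 5537. Without mutant replicate 2 these were *Krt19* (r = 0.489) at place 1791, *Krt8* (r = 0.450) at 2058 and *Krt18* (r = 0.160) at 4311.

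Other keratins and partners of keratins were counted from lists. Of keratins, 11 genes were listed, 0 with an unadjusted limma p under 0.05, and the most abundant by CPM was *Krt19* at 53.9. The count was 1 without mutant replicate 2, *Krt7* as given above. *Krt7* at 22.5 CPM, *Krt79*, *Krt80*, *Krt20*, *Krt10*, *Krt17*, *Krt222* and *Krt1* made up the rest. Of 10 partners of keratins in desmosomes and plaques, 8 were listed (*Pkp1* and *Pkp3* were not) and 3 had an unadjusted p under 0.05, all lower in the mutant-labelled libraries, against 6.62% of all genes in this direction. These were *Dsp* (desmoplakin, 759 against 643 CPM, log2 difference -0.24, limma adjusted p = 0.310), *Pkp2* (plakophilin 2, 121 against 102 CPM, -0.24, limma adjusted p = 0.291) and *Plec* (plectin, 275 against 229 CPM, -0.26, limma adjusted p = 0.301). As background, all of these are also known from the junctions and filaments of cardiomyocytes. Of 13 other intermediate filament genes, 10 were listed (*Gfap*, *Ina* and *Prph* were not), and *Des*, the desmin of muscle, was the 1 gene with an unadjusted p under 0.05, near the 12.1% of all genes, at 676 against 516 CPM (log2 difference -0.40, limma adjusted p = 0.284). *Vim*, the vimentin of mesenchyme, was the most abundant of them at 1707 CPM.

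Among 12 cofactors and reported targets of WT1, all were listed and 1 was past an unadjusted p of 0.05, which is near the 12.1% of all genes. This was *Bmp7*, a secreted growth factor, at 137, 140.1, 135 and 132 CPM in the control and at 113, 94.5, 109 and 118 CPM in the mutant libraries. Every mutant-labelled library was under every control-labelled library (log2 difference -0.33, standard error 0.07, limma adjusted p = 0.204), against 7.1% of all genes without overlap, and it was among the 0.732% of genes called by the likelihood ratio test of edgeR. Of 12 basic helix-loop-helix factors and inhibitors around TCF21, 11 were listed (*Msc* was not), and 3 had an unadjusted p under 0.05, all higher in the mutant-labelled libraries, against 5.45% of all genes in this direction. *Tcf12*, an E-protein that dimerizes with TCF21, was at 162 against 201 CPM (log2 difference 0.29, limma adjusted p = 0.393), with 269 CPM in mutant replicate 2 and at most 183 CPM in the other mutant libraries, and without that library the mutant mean was 179 CPM and the log2 difference 0.14. *Id1* (0.25, limma adjusted p = 0.351) and *Id2* (0.16, limma adjusted p = 0.402), inhibitors of such dimers, were the others. Without mutant replicate 2, *Id2* was no longer under the unadjusted threshold and *Hand1* was (log2 difference 0.30, limma adjusted p = 0.389), whose difference over all 8 libraries was 0.04 with 32.6 CPM in mutant replicate 2.

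The markers of other cell types were read beside these genes, for each list as a whole. Cardiomyocyte markers were lower in the mutant-labelled libraries, with an unadjusted p under 0.05 for 14 of 15 (against 6.62% of all genes in this direction) and a call in the likelihood ratio test for 7 (against 0.732% of all genes in either direction), and *Myh7* was the most abundant. Their summed level was 32363, 30837, 30752 and 27528 CPM in the control and 23898, 21676, 23251 and 25719 CPM in the mutant libraries. Macrophage markers (8 of 8 listed, 0 with an unadjusted p under 0.05, *Csf1r* the most abundant) summed to 48.0, 61.8, 60.3 and 59.5 CPM in the control and 47.0, 80.2, 57.1 and 52.0 CPM in the mutant libraries, and 7 of the 8 were highest in mutant replicate 2, without which 1 of them (*Mrc1*) was lower at an unadjusted p under 0.05, against 5.46% of all genes. Erythroid markers (8 of 8 listed, 0 with an unadjusted p under 0.05, *Hbb-y* the most abundant) summed to 1669, 3396, 2956 and 2763 CPM in the control and 4381, 5042, 2824 and 1423 CPM in the mutant libraries. Cushion mesenchyme markers (10 of 10 listed, 0 with an unadjusted p under 0.05, *Vcan* the most abundant) summed to 3995, 3639, 3631 and 4057 CPM and to 3450.2, 4562, 4063 and 3992 CPM, with *Postn* at 1172 CPM in mutant replicate 2 and at most 747 CPM elsewhere. The part of these cell types in the values of the epicardial genes was not tested.

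Other epithelia near the OFT also make keratins. Of 23 markers of pharyngeal epithelium, 5 were listed, and *Epcam*, *Cdh1*, *Krt5*, *Krt14*, *Krt15*, *Foxa1*, *Foxa2*, *Shh*, *Pax9*, *Pax1*, *Cldn6*, *Cldn7*, *Grhl2*, *Esrp1*, *Trp63*, *Nkx2-1*, *Foxe1* and *Ovol1* were not. Of those listed, *Krt17*, *Cldn3*, *Cldn4* and *Sox2* had means of 0.810 to 1.96 CPM in each genotype, and *Grhl3* was the most abundant at 23.5 CPM. The summed level of the list was 24.2, 29.6, 32.6 and 25.6 CPM in the control and 32.3, 31.9, 33.5 and 26.6 CPM in the mutant libraries, and 0 of the 5 had an unadjusted p under 0.05. *Epcam* and *Cdh1* are defining junction genes of that epithelium. The authors kept genes at 1 CPM in a minimum number of samples, and every listed gene had at least 1 CPM in 4 or more libraries. A gene that is not listed may have been under that filter, and its exact level is not known here.

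The remaining lists were read for the same reason. For pharyngeal mesoderm, single genes with an unadjusted p under 0.05 are given, and not a list as a whole. *Isl1*, a factor of cardiac progenitors, had 25.7, 26.8, 33.0 and 31.1 CPM in the control and 59.2, 40.7, 43.4 and 41.4 CPM in the mutant libraries (log2 difference 0.64, limma adjusted p = 0.142), without overlap, and was called by the likelihood ratio test. *Tbx1* was at 2.45 against 3.81 CPM (log2 difference 0.58, limma adjusted p = 0.388), and its groups overlapped. Without mutant replicate 2 the *Tbx1* difference was 0.57 and its unadjusted p was above 0.05. Of 10 endothelial and endocardial markers, all were listed and 3 were lower at an unadjusted p under 0.05 (*Emcn*, *Plvap* and *Npr3*), against 6.62% of all genes in this direction, and 1 (*Emcn*) without mutant replicate 2, with *Cdh5* the most abundant at 181 CPM. Of 7 smooth muscle markers, all were listed, 2 had an unadjusted p under 0.05 and were higher (*Myh11* and *Actg2*) and 2 were lower (*Myocd* and *Smtn*), against 5.45% and 6.62% of all genes, with *Acta2* the most abundant at 1536 CPM. Mutant replicate 2 was the highest for the first pair, and without it the log2 difference of *Myh11* went from 0.78 to 0.59 and that of *Actg2* from 0.44 to 0.30, while *Smtn* was no longer under the unadjusted threshold. Of 9 genes of neural crest, glia and neurons, 6 were listed, 2 had an unadjusted p under 0.05 and were higher (*Stmn2* and *Elavl4*) and 1 was lower (*Ednrb*, the most abundant at 48.7 CPM), against the same shares, and *Stmn2* and *Ednrb* were also called by the likelihood ratio test. Of 10 hepatic and yolk sac genes, 2 were listed (*Trf*, the most abundant at 39.8 CPM, and *Afp*, from 0.0948 to 18.3 CPM), and 0 had an unadjusted limma p under 0.05. In limma, 0 of the genes named here had an adjusted p under 0.05.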

How the data were processed

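RNA was sequenced from 8 OFT libraries, 4 per genotype. The authors trimmed the reads with cutadapt, quantified them with RSEM on GRCm38 and deposited TMM-normalized CPM from edgeR for 14608 genes. Every gene had at least 1 CPM in 4 or more libraries, and 0 columns were left out. All values were whole multiples of 1 read within a tolerance of 0.01 (100.0% of values), and these reads were used only in edgeR 4.0.16 and DESeq2 1.42.0 as alternatives. The main test was limma 3.58.1 with a trend on R 4.3.3, on log2(CPM + 0.5), a scale that understates changes of low genes, two-sided, with Benjamini-Hochberg adjustment over all genes and a threshold of 0.05. Single genes were also compared by exact permutation over 70 relabellings, and pairs of genes over 40320 orders of the libraries. Lengths, positions and GC content were taken from GENCODE M21, which held 14594 of the genes. The named genes are the members, the genes of each list with an unadjusted p under 0.05 or else the most abundant, and the 10 genes most correlated with the mesothelial members. Other genes named were chosen after their values were seen. The members and lists were chosen with earlier results of these data known. The limma fit and the likelihood ratio test were tested on simulated data, and the outcome is not given here.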

Additional observations from a re-analysis of the deposited data

Results flagged for a closer look

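Each group of 4 libraries was examined for a library far from the others, by the gap of its highest or lowest value to the nearest, divided by the range of the group and set against a limit of Dixon's test. Among the 48 groups of the 9 members and 15 further epicardial genes, 0 passed that limit, mutant replicate 2 included. With 4 values in a group the limit is reached only by a gap that takes up most of the range. The outcome therefore does not clear mutant replicate 2, which stood apart on the first principal component.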

How the results depend on the processing

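The differences of the members were recomputed under other pseudocounts, a filter at 5 CPM, other scalings, other tests, a replicate block, removal of the GC trend (chosen after seeing the data) and without each library in turn. Of these differences, 161 kept their direction and their side of the adjusted threshold and 9 reversed, each on leaving out 1 library. The ranges on leaving out 1 library were -0.058 to 0.16 for *Tcf21*, -0.049 to 0.19 for *Upk3b*, -0.14 to 0.15 for *Upk1b*, -0.035 to 0.22 for *Lrrn4* -0.025 to 0.12 for *Krt8*, 0.0044 to 0.10 for *Krt18* and -0.20 to -0.07 for *Krt19*, and the cause was not tested. Without the GC trend, *Krt8* went from 0.04 to 0.13, *Krt18* from 0.04 to 0.12, *Krt19* from -0.14 to -0.049, *Upk3b* from 0.10 to 0.15 and *Upk1b* from 0.03 to 0.0079. The number of genes past the adjusted threshold was 0 in limma (1763 at an unadjusted p) and in the quasi-likelihood test, 192 in DESeq2 and 107 in edgeR's likelihood ratio test, and the cause was not tested. The number of members with an unadjusted p under 0.05 was 0 with the filter, which leaves out *Msln*, and 0 to 1 on leaving out 1 library (0 without control replicate 2 or control replicate 3). With the replicate block, *Msln* had a log2 difference of -0.60 (limma Benjamini-Hochberg adjusted p = 0.455, against 0.296 to 0.690 over its alternatives). The replicate numbers do not pair the libraries, with correlations of the same number from -0.185 to 0.0349. At 32 to 142 reads a library, *Msln* is the member that depth limits most.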
